A study of Mus musculus with 7 samples.

Results

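The telomere-proximal ends of the mouse autosomes, taken as the last 3 Mb of each of the 19 autosomes in mm9, held 590 of the 26965 H3K9me3 peaks called in both lists. A peak was a member if its deposited end coordinate lay in that window, whatever its height or width. The WT list placed 513 of its 23190 peaks there and the KO list 77 of its 3775. The ends made up 2.38% of the sequenced autosomal bases and held 2.34% of the autosomal WT peaks and 2.099% of the autosomal KO peaks. All 19 ends held at least 1 WT peak, and 6 held no KO peak. The member farthest in lay 2974 kb from the end in WT and 2990 kb in KO, and the nearest peaks outside the window at 3018 and 3041 kb.

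The peaks came from chromatin immunoprecipitation and sequencing (ChIP-seq) of H3K9me3 (histone H3 with 3 methyl groups on lysine 9) in immortalised mouse embryonic fibroblasts (iMEFs) with a conditional Setdb1 allele (Setdb1 cKO iMEFs). WT iMEFs were left untreated. KO iMEFs received 4-hydroxytamoxifen (4OHT), which induces deletion of Setdb1, for 4 days and were harvested on day 7. Both groups carried the conditional allele, and single cells of the line had been recloned before use, so the cells may stand for a single clone. With 1 H3K9me3 library in each group, differences between WT and KO have no replicate check, and no test was possible. The peak lists hold no expression values, so they give no measure of the Setdb1 deletion, and loss of the mark in some cells cannot be told apart from less mark in every cell. The other 5 samples of the series, 2 H3K9me3 libraries and 1 input of E14.5 forebrain and 1 input each of WT and KO iMEFs, were not analysed here.

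Mouse autosomes are telocentric: the centromere sits at the low-coordinate end, and the high-coordinate end runs into the telomere of the long arm. H3K9me3 marks silent chromatin, and Setdb1 (Eset) is the methyltransferase that lays it down on many retroviral sequences after recruitment by Trim28 and Krüppel-associated box zinc-finger proteins. These proteins bind DNA through tandem Cys2-His2 (C2H2) zinc fingers, each encoded by a repeat unit of 84 bp, and the exons that encode such arrays are themselves known to carry H3K9me3.

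The widest WT peaks near the chromosome ends lay over sequence of this kind, and 5 stretches from 5 chromosomes are shown because the results on wide peaks turn on them. Each line gives 2 consecutive fingers (147 bases, mm9, coding strand, 5′ to 3′) from the highest-scoring WT peak over 1 kb on that chromosome that held such a pair. Capitals mark the codons of the 2 cysteines and 2 histidines of each finger.
chromosome 2 fingers, chr2:181682194-181682340, minus strand: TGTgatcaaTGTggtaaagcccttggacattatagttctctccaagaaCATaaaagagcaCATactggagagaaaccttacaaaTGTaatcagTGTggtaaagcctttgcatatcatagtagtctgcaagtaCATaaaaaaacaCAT
chromosome 11 fingers, chr11:121803923-121804069, minus strand: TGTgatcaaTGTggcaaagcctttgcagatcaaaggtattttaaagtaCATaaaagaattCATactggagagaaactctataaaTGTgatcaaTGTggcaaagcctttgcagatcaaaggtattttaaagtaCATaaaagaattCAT
chromosome 16 fingers, chr16:98287488-98287634, minus strand: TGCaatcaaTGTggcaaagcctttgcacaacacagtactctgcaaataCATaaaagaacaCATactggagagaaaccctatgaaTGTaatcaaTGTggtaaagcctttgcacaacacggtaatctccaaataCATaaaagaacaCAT
chromosome 17 fingers, chr17:95216841-95216987, minus strand: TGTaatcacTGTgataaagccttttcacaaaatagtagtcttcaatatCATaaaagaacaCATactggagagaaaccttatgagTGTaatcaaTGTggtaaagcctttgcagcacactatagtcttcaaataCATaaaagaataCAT
chromosome 19 fingers, chr19:61258884-61259030, plus strand: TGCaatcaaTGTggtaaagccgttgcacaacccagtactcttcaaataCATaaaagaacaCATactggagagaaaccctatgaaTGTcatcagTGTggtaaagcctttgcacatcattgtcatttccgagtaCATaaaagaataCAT
The 10 pairwise comparisons of these 5 stretches gave between 74.8% and 90.5% identical bases, with a median of 81.3%. The fingers were searched for by their spacing (2 residues between the cysteines, 12 to the first histidine and 3 between the histidines), which is therefore no finding.

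Only 6 WT peaks in the ends overlapped a KO peak, and 3 of them, 1 each on chromosomes 14, 15 and 19, are shown as examples of places where both lists called the mark. They were taken by chromosome and length, not by score. Capitals mark the bases that lie in both the WT and the KO peak (mm9, plus strand).
chromosome 14 shared peak, chr14:124819412-124819496, plus strand: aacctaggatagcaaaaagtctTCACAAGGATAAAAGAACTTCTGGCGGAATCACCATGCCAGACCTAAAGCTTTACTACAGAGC
chromosome 15 shared peak, chr15:103388657-103388882, plus strand: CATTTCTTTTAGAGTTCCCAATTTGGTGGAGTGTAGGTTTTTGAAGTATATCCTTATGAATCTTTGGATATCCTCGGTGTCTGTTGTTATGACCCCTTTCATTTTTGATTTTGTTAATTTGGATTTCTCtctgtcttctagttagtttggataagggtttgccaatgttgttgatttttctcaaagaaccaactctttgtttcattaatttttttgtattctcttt
chromosome 19 shared peak, chr19:59811906-59812154, plus strand: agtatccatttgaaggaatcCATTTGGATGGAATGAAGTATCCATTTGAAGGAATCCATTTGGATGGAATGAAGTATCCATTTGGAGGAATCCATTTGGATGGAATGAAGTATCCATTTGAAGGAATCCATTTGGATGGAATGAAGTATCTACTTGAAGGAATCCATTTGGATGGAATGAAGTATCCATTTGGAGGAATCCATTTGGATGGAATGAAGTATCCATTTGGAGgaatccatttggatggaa
The chromosome 14 stretch was repeated sequence, with a median of 2668 genomic copies of its 31-mers (31-base words, counted on both strands). The 31-mers of the chromosome 19 stretch, which repeats within itself, had a median of 5 copies, and those of the chromosome 15 stretch a median of 1.

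Sequences of the highest-scoring WT peak, the highest-scoring KO peak and the centre of the leading peak of a cluster inside Kcnq1 are given for comparison. None of the 3 held a CG dinucleotide, the usual target of DNA methylation. The stretches printed above held from 0 to 2, and CG was not counted in other peaks, so this does not set the 3 apart. All letters are in lower case (mm9, plus strand).
highest-scoring WT peak, chr9:123782233-123782318, plus strand: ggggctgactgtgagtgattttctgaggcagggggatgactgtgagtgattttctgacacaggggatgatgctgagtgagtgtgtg
highest-scoring KO peak, chr9:123639946-123640014, plus strand: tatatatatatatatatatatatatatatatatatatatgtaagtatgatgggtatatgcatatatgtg
Kcnq1 cluster, centre of its highest-scoring peak, chr7:150414652-150414851, plus strand: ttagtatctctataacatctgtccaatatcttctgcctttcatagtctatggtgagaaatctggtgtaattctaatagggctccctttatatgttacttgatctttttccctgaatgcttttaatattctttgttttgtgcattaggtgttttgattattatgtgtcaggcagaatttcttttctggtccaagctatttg

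WT H3K9me3 was concentrated in the outermost part of the ends. The last 0.5 Mb held 200 of the 513 WT peaks, 39.0% of them in 16.6% of the sequence, and the density there was 21.2 peaks per Mb (exact Poisson 95% interval 18.3 to 24.3). From 0.5 to 3 Mb the density was 6.59 per Mb (5.88 to 7.36), and in the rest of the autosomes it was 9.18 per Mb (9.05 to 9.30). These intervals cover counting error only, and peaks of 1 cluster are not independent, which makes them too narrow. Over the whole 3 Mb the density was 9.01 WT peaks per Mb, 0.982 times the density of the rest of the autosomes (0.898 to 1.07).

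The rise began only close to the end. In successive 50-kb steps from the end, the 19 autosomes together held 45, 45, 40 and 18 WT peaks, then between 5 and 14 peaks in each of the next 6 steps. The last 100 kb thus had 47.4 WT peaks per Mb (38.1 to 58.3). Between 0.5 and 3 Mb the 5 steps of 0.5 Mb held between 53 and 73 peaks each, and the 2 steps just outside the window held 39 and 49. A second rise lay farther in: the 3 steps from 8.5 to 10 Mb held 169, 170 and 146 WT peaks, or 17.8, 18.4 and 15.6 per Mb, and the intervals of all 3 overlapped that of the last 0.5 Mb. In the pooled counts a high density was thus not particular to the chromosome end. This second rise was not split by chromosome, and a single 0.5-Mb tile outside the ends held up to 128 WT peaks. How many chromosomes share the second rise is therefore unknown here. The density in the last 0.5 Mb was above that of the following 2.5 Mb on 16 of 19 chromosomes and above that of the rest of the same chromosome on 14 of 19. Leaving out 1 chromosome at a time kept the ratio of the last 0.5 Mb to the rest of the autosomes between 2.12, without chromosome 11, and 2.46.

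**Figure D1:**
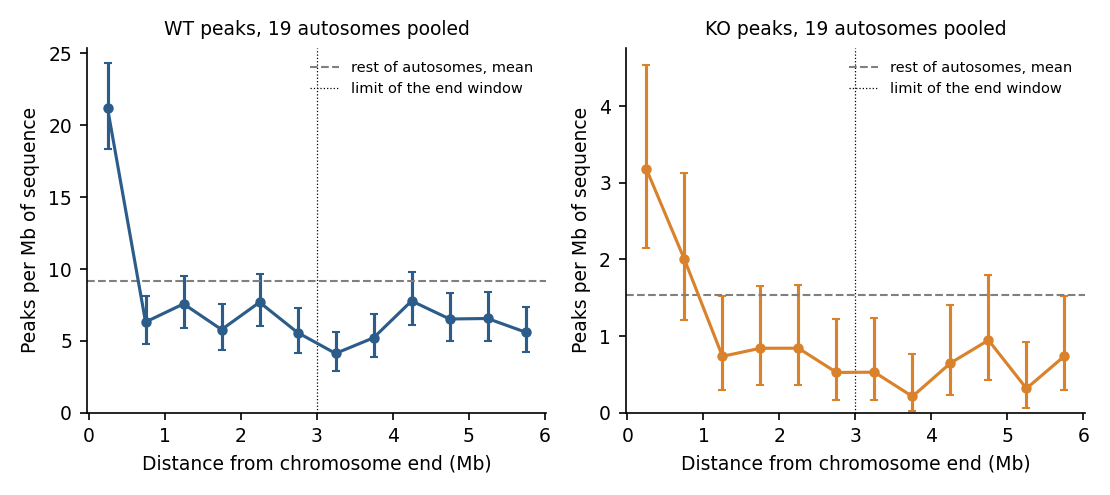
Peaks per Mb of sequenced bases (y axis) in 0.5-Mb steps of distance from the chromosome end (x axis, Mb), pooled over 19 autosomes, for WT (left) and KO (right). Error bars are exact Poisson 95% intervals of the counts, the dashed line is the mean of the rest of the autosomes and the dotted line the 3-Mb limit; the first WT step stands at 21.2 per Mb and the next at 6.32.

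KO peaks were fewer throughout, and their pooled density was also highest in the outermost step of the window. The last 0.5 Mb held 30 KO peaks, 3.18 per Mb (2.14 to 4.53), the next 0.5 Mb held 19, and the 4 further steps to 3 Mb held 7, 8, 8 and 5. The second step, at 2.00 per Mb (1.20 to 3.12), had an interval that included the 1.54 (1.49 to 1.59) of the rest of the autosomes. Steps from 8.5 to 10 Mb held 47, 34 and 34 KO peaks, and the first of these, at 4.95 per Mb, was above the last 0.5 Mb, with overlapping intervals. These steps were not split by chromosome either. By chromosome, the last 0.5 Mb had a higher KO density than the following 2.5 Mb on 8 of 19, with 6 at 0 in both, and a higher density than the rest of the same chromosome on 8 of 19. This rise leaned on chromosome 8, which gave 10 of the 30 peaks: without it, the density of the last 0.5 Mb relative to the rest fell from 2.07 to 1.66. For each 100 WT peaks there were 15 KO peaks in the last 0.5 Mb (9.86 to 22.1), 15.02 from 0.5 to 3 Mb (10.8 to 20.5) and 16.7 in the rest of the autosomes (16.2 to 17.3), with overlapping intervals. The ratio parted among high peaks: with pileups of 15 or more, the ends had 3 KO to 47 WT peaks, 6.38 per 100, and the rest of the autosomes 686 to 1712, 40.07 per 100. By covered length the KO list had 6.07% of the WT total in the ends and 9.58% in the rest.

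Placed against other stretches of equal size, the ends were mixed. Of the 19 ends, 8 held more WT peaks than the upper quartile of 764 tiles of 3 Mb elsewhere on the autosomes, which was 32 peaks, where 24.3% of all 783 autosomal tiles did, the ends included. For KO, 5 of 19 ends exceeded their upper quartile of 5 peaks, against 23.2% of the 783. With 0.5-Mb tiles, 14 of 19 chromosome ends held more than 6 WT peaks, the upper quartile elsewhere, where 20.4% of all 4756 tiles did, ends included, and 6 of 19 held more than 1 KO peak, where 13.5% did. The upper range was not reached: the fullest end tile of 0.5 Mb held 25 WT peaks and the fullest tile elsewhere 128.

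The opposite, centromere-side ends differed from these. The first 3 Mb of sequence of the 19 autosomes held 883 WT and 204 KO peaks, 1.70 and 2.34 times the density of the rest of the autosomes. That rest is all autosomal sequence outside the telomere-proximal ends, so it includes the centromere-side ends themselves. There, 81 WT peaks, 9.17% (Wilson 95% interval 7.44 to 11.3), overlapped a KO peak, and 51.5% of KO peaks (44.6 to 58.2) overlapped a WT peak. The local background that the peak caller set beneath a KO peak was also higher, with a median of 6.29 fragments against 1.07 at the telomere-proximal ends, and its part in the difference was not tested.

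Overlap between the lists was rare at the telomere-proximal ends. Of their 513 WT peaks, 6 overlapped a KO peak by 1 bp or more, which is 1.17% (0.537 to 2.53), where 2.42% of all WT peaks did, and 507 did not. Of their 77 KO peaks, 5 shared a base with a WT peak, 6.49% (2.81 to 14.3), where 16.1% of all KO peaks did. In the rest of the autosomes these shares were 2.36% (2.16 to 2.57) and 15.3% (14.2 to 16.5), and the intervals of ends and rest overlapped in both cases. Of the 6 WT peaks, 5 lay in the last 0.5 Mb. The median KO peak of the ends lay 23.2 kb from the nearest WT peak, and 33.8% of KO peaks (24.2 to 44.9) lay within 10 kb of one, against 53.0% (51.4 to 54.7) in the rest.

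The shared place with the highest score was on chromosome 19 at 59811906 to 59812154, 1530 kb from the end and 167 kb from Rab11fip2, the nearest protein-coding gene. Its pileup, the coverage by fragments at the summit, was 16 in WT and 12 in KO, with a fold enrichment over local background of 7.34 and 5.42. On chromosome 15, 4.31 to 4.64 kb from Glycam1, a gene for a mucin-like protein, 2 WT peaks with a pileup of 10 were bridged by a single KO peak with a pileup of 9 at 103388531 to 103388785. The chromosome 14 pair lay in an intron of Fgf14, with a pileup of 9 in WT and 10 in KO. The 2 pairs on chromosome 8 had pileups of 10 and 11 in WT and of 9 and 10 in KO, and 1 of them lay in an intron of Ccdc7, a coiled-coil protein gene. Outside chromosome 19, all these pileups lay between 9, the lowest value in both lists, and 11.

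**Figure D2:**
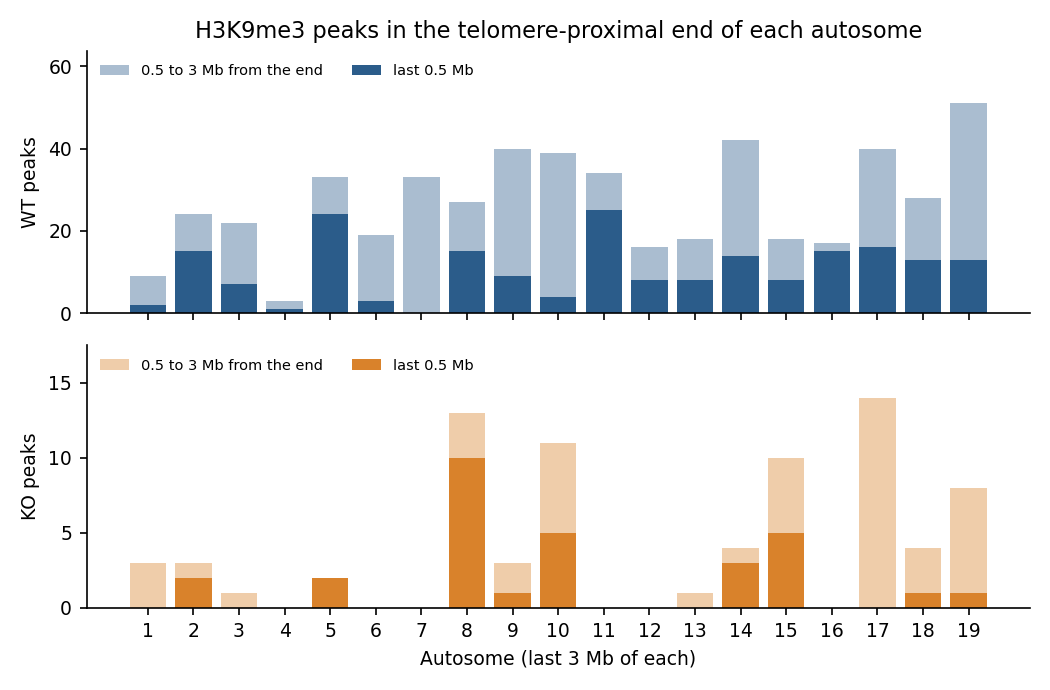
Numbers of WT peaks (top) and KO peaks (bottom) in the last 3 Mb of each autosome, with the last 0.5 Mb in the darker shade. WT counts run from 3 on chromosome 4 to 51 on chromosome 19, and KO counts from 0 on 6 chromosomes to 14 on chromosome 17.

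The chromosomes differed among themselves. WT counts per end ran from 3 on chromosome 4 to 51 on chromosome 19, with a median of 27. After chromosome 19 came chromosomes 14, with 42 peaks, and 9 and 17, with 40 each, so that these 4 ends held 173 of the 513. The density of the end was above that of the rest of the same chromosome on 8 of 19 chromosomes, from 0.104 times on chromosome 4 to 1.70 times on chromosome 14. The chromosome 4 end was also the richest in G and C, at 50.05%, with 71 protein-coding genes. The chromosome 11 end had 86 genes, 48.8% GC and 34 WT peaks, of which 25 lay within 158 kb of the end. Whether GC content or gene number bears on the peak count was not tested.

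What lay in the 4 fullest WT ends was not alike. On chromosome 19, 37 of 51 peaks were single-copy (median 31-mer count of 1), and the 51 covered 14.6 kb. On chromosome 14, only 7 of 42 were single-copy and 22 had over 1000 genomic copies. On chromosome 9, 24 of 40 were single-copy, and the peak closest to the end reached the last base of the assembled chromosome. On chromosome 17, 16 of 40 were single-copy and 12 had over 1000 copies. Chromosome 13 had 18 peaks of which 0 were single-copy, and chromosome 11 had 34 of which 23 were single-copy and 0 had over 1000 copies.

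KO peaks were unevenly spread. Chromosomes 17, 8, 10 and 15 held 14, 13, 11 and 10, together 48 of the 77, while their ends held 124 of the 513 WT peaks. Chromosomes 4, 6, 7, 11, 12 and 16 held no KO peak but 122 WT peaks, with 34 on chromosome 11 and 33 on chromosome 7. KO density in the end was above that of the rest of the same chromosome on 5 of 19 chromosomes. It was 1.80, 1.44 and 1.69 times the rest on chromosomes 17, 10 and 15, but 0.872 times on chromosome 8. The rests of chromosomes 6, 7, 12 and 16 were themselves poor, with 0.358 to 0.576 KO peaks per Mb. Those of chromosomes 4 and 11 had 1.27 and 2.32, and the rest of all autosomes 1.54. On chromosome 17 the 14 KO peaks lay between 719 and 2916 kb from the end, outside the 16 WT peaks of the last 0.5 Mb. On chromosome 8, 10 of 13 lay in the last 0.5 Mb, and on chromosome 10 all 11 lay within the last 1505 kb, which hold olfactory and vomeronasal receptor genes. Chromosome 15 had the widest KO peak of the ends, 344 bp with a pileup of 15, 13.1 kb from the end.

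Peak by peak, WT members resembled other WT peaks. Their median width was 146 bp, against 136 bp in the rest of the autosomes, and the median pileup was 10 fragments and the median fold enrichment 4.63 in both. In all, 40.4% of WT peaks in the ends (36.2 to 44.7) had the lowest pileup called, 9 fragments. In the last 0.5 Mb, however, 36 of 200 WT peaks, 18% (13.3 to 23.9), had a pileup of at least 15, against 3.51% (1.97 to 6.18) from 0.5 to 3 Mb and 7.98% (7.63 to 8.35) in the rest of the autosomes. The local background exceeded 3 fragments beneath 9% of WT peaks in the last 0.5 Mb, 1.28% from 0.5 to 3 Mb and 3.81% in the rest.

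KO members had a median width of 77 bp and a median pileup of 9, near the 84 bp and 10 of KO peaks in the rest of the autosomes. High peaks were fewer: 3 of 77, 3.90% (1.33 to 10.8), had a pileup of at least 15, where 19.1% (17.9 to 20.4) did in the rest of the autosomes. A local background above 3 fragments lay beneath 1 of the 77, and beneath 16.7% of KO peaks in the rest. Sequence copy number differed as well: 42.3% of WT members (38.1 to 46.6) were single-copy against 29.4% (28.8 to 30.0) in the rest, and 71.4% of KO members (60.5 to 80.3) against 57.4% (55.8 to 59.0). Reads that fitted several places were placed at random by the authors, so peaks in multi-copy sequence cannot be assigned to 1 copy.

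The highest-scoring WT peak was on chromosome 9 at 123782233 to 123782318, 10.99 kb from Xcr1, a chemokine receptor gene, with a pileup of 98 over a background of 23.0 fragments, a fold enrichment of 4.12 and a −log10 q of 24.8. The next, on chromosome 16 at 96004986 to 96005143, had a pileup of 26 and a fold of 9.08 and lay in sequence with 3694 copies. The third was a 2233-bp peak on chromosome 11 at 121803912 to 121806145, over an exon of Gm9631, with a pileup of 25 and a fold of 8.47 in single-copy sequence. The highest-scoring KO peak, on chromosome 9 at 123639946 to 123640014 in an intron of Ccr9, the receptor for the chemokine Ccl25, had a pileup of 16 and a fold of 7.09. The next KO peaks, both on chromosome 17, had pileups of 12 and 11, and neither overlapped a gene. The one with a pileup of 12 lay in sequence with 8648 copies. The other tied in score with peaks on chromosomes 10 and 17 and was taken as the widest of them. None of these 6 peaks overlapped a peak of the other list.

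Wide peaks were gathered in the last 0.5 Mb. Of 200 WT peaks there, 15 were wider than 1 kb, 7.50% (4.597 to 12.004), where 1.55% of all WT peaks were, and from 0.5 to 3 Mb 2 of 313 were. The 15 lay within 158 kb of the end, on 6 chromosomes: 6 on chromosome 11, 3 each on 16 and 19, and 1 each on 2, 17 and 18. They covered 22.5 kb, 37.5% of the WT length in the last 0.5 Mb, with pileups from 11 to 34 and fold enrichments from 3.43 to 8.99. None overlapped a KO peak, where 2.42% of all WT peaks did. No KO peak in the ends was wider than 344 bp. In the rest of the autosomes 4 of 3591 KO peaks, 0.111%, were wider than 1 kb, so neither absence sets the ends apart. The widest WT peaks were 2519 bp on chromosome 11 at 121717739 to 121720258 and 2389 bp on chromosome 17 at 95216808 to 95219197. The third was the Gm9631 peak. The single-copy class held 15 of the 17 wide peaks of the whole 3 Mb.

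Translated in all 6 frames, 14 of these 15 wide peaks overlapped an array of at least 4 C2H2 fingers, in which fingers follow each other at 28 codons in 1 frame. Over 1-kb windows centred on the peaks, 93.3% (70.2 to 98.8) of the 15 held a finger with a neighbour at that spacing, where 24.5% (20.2 to 29.3) of the 339 WT peaks over 1 kb in the rest of the autosomes did. Of all 1-kb tiles, 0.286% in the last 0.5 Mb and 0.0613% in the rest of the autosomes held one. In the ends 25 WT peaks, 4.87% (3.32 to 7.09), overlapped an array, where 1.63% of all autosomal WT peaks did, and 0 of 77 KO peaks did, which allows a share of up to 3.90%. In the rest of the autosomes 16 of 3591 KO peaks, 0.446%, overlapped an array, so this 0 does not set the ends apart.

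Seen from the arrays, most of those at the ends carried WT H3K9me3. The ends held 17 arrays with 212 fingers in all, of which 13, 76.5% (52.7 to 90.4), overlapped a WT peak, where 35.2% of all 628 autosomal arrays did. In the last 0.5 Mb this was 11 of 12, 91.7% (64.6 to 98.5), from 0.5 to 3 Mb 2 of 5, and in the rest of the autosomes 34.0% (30.4 to 37.9) of 611. No array in the ends overlapped a KO peak, where 2.23% of all arrays did, and 0 of 17 allows a share of up to 17.6%. A KO peak at 181680380 to 181680447 on chromosome 2 lay 0.739 kb from an array and 0.050 kb from a WT peak. The arrays in the last 0.5 Mb were long, with a median of 15.5 fingers against 11 in the rest, and dense, at 1.27 arrays per Mb against 0.261.

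**Figure D3:**
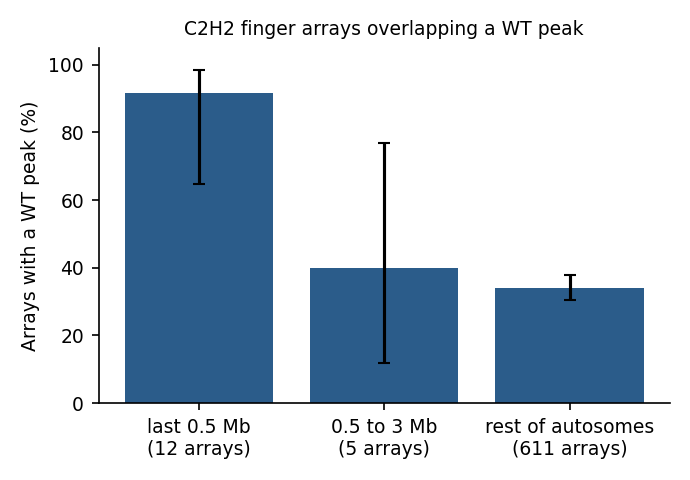
Share of C2H2 finger arrays that overlapped a WT peak (y axis, %), by position of the array (x axis). Error bars are Wilson 95% intervals of counting error; the bars stand at 91.7% of 12 arrays, 40.0% of 5 and 34.0% of 611.

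The arrays sat in genes and in sequence that the annotation leaves unnamed. On chromosome 11, 4 arrays of 20, 9, 17 and 4 fingers lay in the pseudogene Gm12586, the genes Gm12588 and Gm9631, and the pseudogene Gm12591, all within 123 kb of the end and all overlapped by WT peaks. On chromosome 19, an array of 17 fingers overlapped Zfp950, a zinc-finger gene by name, with 257 of its 1407 bases and ran on beyond the annotated gene, and 1 of 14 fingers lay at Gm6020. Each had 3 WT peaks, and 1 of the 3 at the first array lay in Zfp950. On chromosome 18, 14 fingers lay at Gm17635, 10.4 kb from the end, with 2 WT peaks. The arrays of 19 and 17 fingers on chromosome 16, of 17 on chromosome 17 and of 14 on chromosome 2 overlapped no annotated gene and carried 3, 2, 1 and 2 WT peaks. The only array of the last 0.5 Mb without a WT peak was 1 of 4 fingers in an intron of 5830405N20Rik on chromosome 10. Farther in, on chromosome 9, the arrays of Zfp167 and Zfp105 each had 2 WT peaks, and that of Zfp445 had none.

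**Figure D4:**
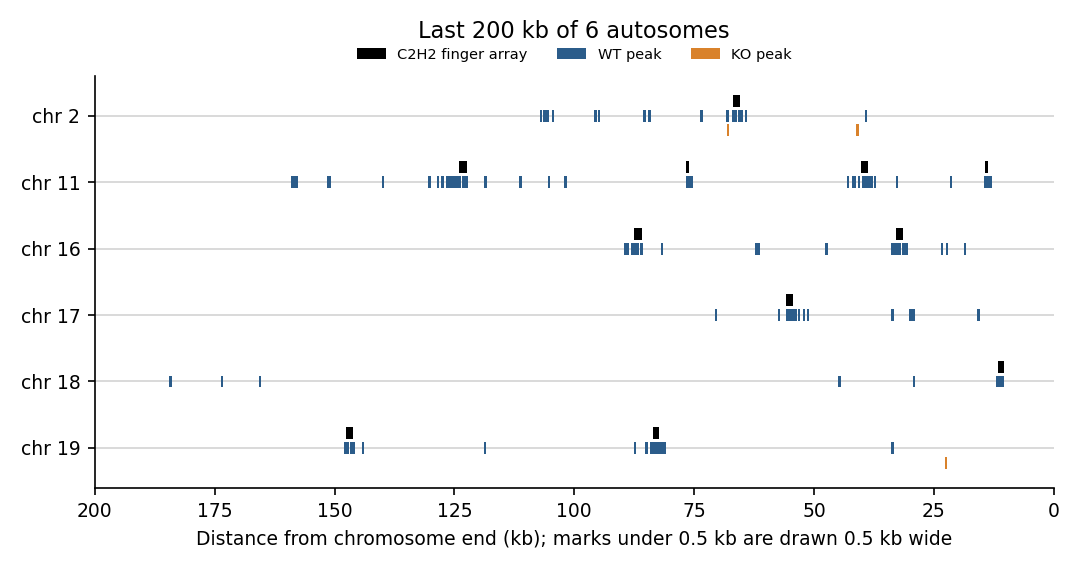
C2H2 finger arrays (black), WT peaks (blue) and KO peaks (orange) in the last 200 kb of 6 autosomes, by distance from the chromosome end (x axis, kb, end at the right). The 6 autosomes are those with a WT peak wider than 1 kb in the last 0.5 Mb. Each of the 11 arrays drawn is overlapped by 1 to 3 WT peaks. The 3 KO peaks, 2 on chromosome 2 and 1 on chromosome 19, overlap none, although 1 on chromosome 2 lies 0.739 kb from the array there.

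WT peaks close to the ends lay both near arrays and away from them. In the last 0.5 Mb, 51 of 200 WT peaks lay within 10 kb of an array and 149 lay farther away. The share of sequence, or of WT peaks elsewhere, within 10 kb of an array was not computed, so the split has no comparison. Chromosome 5, with 24 WT peaks in its last 0.5 Mb, and chromosome 14, with 14, had no array in their ends. Chromosome 7 had no WT peak in its last 0.5 Mb, and its outermost WT peak lay 1446 kb from the end.

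Telomere-type repeats were also looked for, since the windows run towards the telomere. The unit TTAGGG (or CCCTAA on the other strand) occurred at least once in 33 of 513 WT members, 6.43%, and in 7.73% of WT peaks in the rest of the autosomes, and 0 WT and 0 KO members held 2 units in tandem. Tandem units were as rare elsewhere, in 1 of 21444 WT and 0 of 3591 KO peaks of the rest, so this count does not set the ends apart. The ends held 34 runs of 4 or more units, on 14 chromosomes, and none lay within 1 kb of a WT or a KO peak. How many would lie so close by position alone was not computed. With only 9.01 WT peaks per Mb in the ends, this 0 is not read as a lack of the mark at such runs.

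Most protein-coding genes at the ends held no peak of either list. Of 737 protein-coding genes reaching into the ends, 50, 6.78% (5.18 to 8.83), had a WT peak in the gene body, where 9.08% of all autosomal genes did, and 10, 1.36% (0.739 to 2.48), had a KO peak, where 2.37% did. Gene bodies covered 44.4% of the sequence of the ends, and 23.98% of WT members (20.5 to 27.9) and 16.9% of KO members (10.1 to 26.8) lay in one. Promoters, from 2000 bp before to 500 bp after a transcript start, covered 7.02% of the sequence and were met by 6.43% of WT (4.62 to 8.90) and 5.19% of KO members. In the rest of the autosomes 20.9% of WT and 24.5% of KO peaks lay in a gene body, where gene bodies covered 39.5% of the sequence. There, 3.90% of WT (3.65 to 4.17) and 6.40% of KO peaks met a promoter, and promoters covered 5.10% of the sequence.

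The gene with the most WT peaks was Kcnq1 on chromosome 7 (150293159 to 150612955), a voltage-gated potassium channel gene in an imprinted domain. It had 21 WT peaks, 19 of them single-copy, and no KO peak. Of these, 19 formed a cluster from 150400003 to 150435790, a span of 35.8 kb inside introns, with gaps of at most 7.60 kb. The cluster peaks had pileups of 9 to 13 and fold enrichments of 4.32 to 6.05, were 89 to 1010 bp wide, and covered 5.65 kb, 15.8% of the span. They made up 57.6% of the WT peaks in the chromosome 7 end, and the nearest KO peak lay 916 kb away. The authors' lists give no strand, and Kcnq1ot1, a long RNA known to be transcribed antisense from an intron of Kcnq1, is not named in the annotation used.

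**Figure D5:**
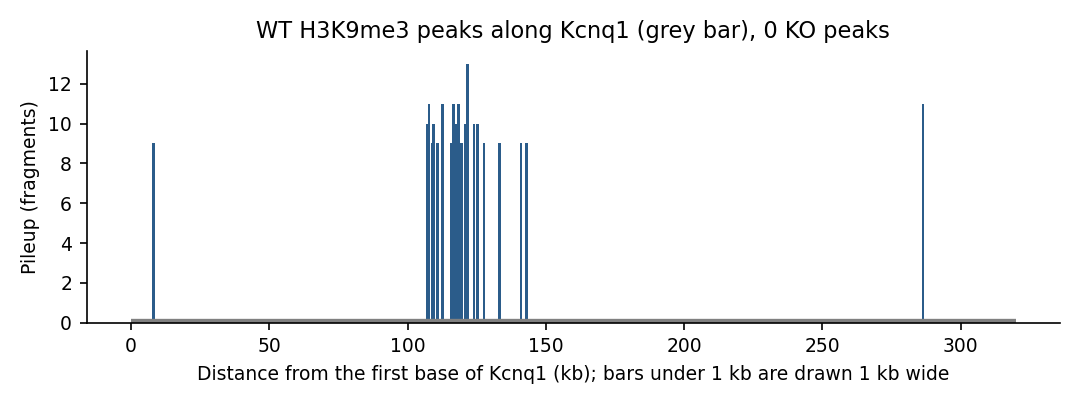
WT H3K9me3 peaks along Kcnq1 (grey bar), by distance from the first base of the gene (x axis, kb) and pileup at the summit (y axis, fragments). Of the 21 peaks, 19 lie between 107 and 143 kb, with pileups of 9 to 13.

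Kcnq1 lies in the distal chromosome 7 imprinted domain. Of 18 genes listed for it, 17 were in the annotation, and besides Kcnq1 only Igf2, a fetal growth factor gene, had a WT peak, a single one with a pileup of 9. These 2 of 17 are 11.8%, near the 9.08% of all autosomal genes. None had a KO peak. H19, Cdkn1c, Phlda2 and the others of these 17 had none in either library. Kcnq1ot1, which the annotation does not name, was not examined.

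On chromosome 14, Fgf14, which encodes an intracellular fibroblast growth factor homologue that acts on sodium channels, had 13 WT peaks and 2 KO peaks over 699 kb, and its neighbour Itgbl1, an integrin beta-like gene, had 8 WT and no KO peaks over 316 kb. These are 1.86 and 2.53 WT peaks per 100 kb, against 6.57 for Kcnq1, and only 2 and 1 of the peaks were single-copy. The genes 1700008F21Rik, Far2 (a fatty acyl-CoA reductase) and Fry followed with 4 WT peaks each, and 1700008F21Rik also had 2 KO peaks. With 3 WT peaks each came Gm9631, Rdh16 (a retinol dehydrogenase), B230307C23Rik, Zfp167, Zfp105, Ulk4, Vmn2r18 (a pheromone receptor) and Ptchd3. Rdh9, another retinol dehydrogenase gene, had 2.

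KO peaks of the ends lay in 9 protein-coding genes. Fgf14, Ccdc7, 1700008F21Rik and Dok6, a docking protein gene, had 2 each. Syt14, Cdh4 (R-cadherin), Lrrc7, Ccr9 and Adcyap1 (the neuropeptide PACAP) had 1 each, with pileups of 9, 9, 10, 16 and 10. Of these 9 genes, 6 also had a WT peak, where 9.08% of all autosomal protein-coding genes did. Gene length was not taken into account, and Fgf14, Dok6 and Cdh4 span 699, 468 and 457 kb. Only in Fgf14 and Ccdc7 did a WT and a KO peak overlap.

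Gene families of the ends are read against the 9.08% of all autosomal genes with a WT peak and the 2.37% with a KO peak. Counts of 0 in families of 24 genes or fewer cannot be told apart from those shares. The 0 of 58 Olfr genes with a WT peak lies below 9.08%, but gene length was not taken into account. Of 9 genes named Zfp, 3 (33.3%) had a WT peak (Zfp105, Zfp167 and Zfp950) and 0 a KO peak. All 58 Olfr genes of the ends lay on chromosome 10, and 0 overlapped a WT or a KO peak in the gene body, although 6 of the 11 KO peaks of that end had an Olfr gene as the nearest gene and the other 5 a Vmn2r gene. Of 5 Vmn genes, Vmn2r18 had WT peaks. The 24 keratin genes (Krt) and 9 Hoxc genes of chromosome 15 had none in either list, and no Pcdh gene lay in the ends.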

How the data were processed

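H3K9me3 ChIP-seq peak lists of 1 WT and 1 KO iMEF library were analysed. The authors digested the chromatin with MNase, aligned the single-end reads with Bowtie2 2.2.3 (build mm9), placed multi-hit reads at random and removed duplicates. MACS 2.1.0.20140616 made each list from 1 library, per the file headers. The deposited pileup is a signal (fragment coverage at the summit), the deposited enrichment is a ratio (pileup over local background, 1 added to both), and the deposited significance columns are −log10 p-values and −log10 q-values. Read totals are not part of the lists. The paper gives an approximate range of read numbers for its iMEF ChIP-seq, but no total for each library. The depth behind each list is thus not known exactly here. Whether starts count from 0 or 1 is not stated, which leaves 1 bp of uncertainty.

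Members were peaks on chromosomes 1 to 19 ending in the last 3 Mb. The members and lists were chosen with earlier results of these data known, and the 0.5-Mb split and the finger arrays after the members were seen. Overlap meant at least 1 bp. Copy number was the median count of a peak's 31-mers in mm9. Finger arrays were stretches of at least 4 C2H2 fingers, each with a neighbour at 28 codons, joined up to 2000 bp apart. Genes came from GENCODE M1 (NCBIM37, the same build as mm9). Named peaks were the 3 highest-scoring of each list, the 3 highest-scoring overlapping WT peaks and the 3 widest; named genes were up to 15 protein-coding genes with the most WT peaks, those with KO peaks and those of listed families. Arrays and wide peaks outside these rules, the remaining overlapping peaks and genes set at a boundary were named after their values were seen. Shares carry Wilson 95% intervals and densities exact Poisson intervals, for counting error only; a count of 0 allows up to 3 counts. With 1 library per group no p-value was computed. Interval, copy and finger code was tested on simulated data. Alternatives covered window, threshold, merging, copy number, overlap and length. Sequences and k-mers were read with pysam 0.24.0 and numba 0.67.0, intervals came from scipy 1.17.1, and tables and plots from pandas 2.3.3, numpy 2.4.6 and matplotlib 3.10.9 under Python 3.11.15.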

Additional observations from a re-analysis of the deposited data

How the results depend on the processing

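Of 73 alternative values, 40 stayed within the counting interval of the reported value (counts, within 1.5 times) and 33 moved. With a window of 1 Mb the WT and KO counts were 260 and 49 and the densities relative to the rest 1.502 and 1.70, and with 5 Mb the densities were 0.843 and 0.675, so a density above or below that of the rest depended on the window. The last 0.5 Mb, chosen after seeing the data, gave 200 and 30 peaks and densities of 2.32 and 2.08 against all other autosomal sequence, and 0.5 to 3 Mb gave 313 and 47 peaks, densities of 0.718 and 0.644, and shares overlapping the other list of 0.319% (WT) and 2.13% (KO). At a −log10 q at or above the WT median, 270 WT and 25 KO peaks were left, with 9.26 KO per 100 WT peaks and 0.370% of WT peaks overlapping. At a pileup of at least 15, 47 WT and 3 KO peaks were left, with 6.38 KO per 100 WT peaks, densities of 1.13 and 0.179, and 0 overlaps in either list (0%). Among single-copy peaks, 217 WT peaks were left, with 25.3 KO per 100 WT peaks, a WT density of 1.41 and 1.82% of KO peaks overlapping. Counting overlap within 1 kb gave 2.53% of WT peaks, and covered bases gave a WT density of 1.11. Merging peaks, whole chromosome lengths and leaving out chromosome 19 moved none of the values they were run on. The share of arrays in the ends with a WT peak was 75% with at least 2 fingers and 85.7% with at least 8, against 28.2% and 42.3% in the rest, settings chosen after seeing the data. No paired analysis was possible because WT and KO had 1 library each. The KO shares rest on 77 peaks and are limited by the depth of each library, which is known only as an approximate range.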
